A study of Mus musculus with 12 samples.

Results

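The Rab small GTPases were examined in the RNA of primary mouse microglia from wild-type (WT) animals and from animals homozygous for a knock-in (KI) of the Trem2 R47H variant, each untreated or given interleukin-4 (IL-4). The members were the protein-coding genes whose symbol is Rab followed directly by a digit and at most 3 further characters, and whose mean log2(TPM + 1) over the 12 libraries was above 0.5. TPM is the abundance of a gene's transcripts, corrected for their length and scaled so that every library has the same sum. Of the 48623 genes in the table, 62 protein-coding genes had such a symbol and 52 of them were members. The symbol alone also takes in 3 genes that encode no Rab GTPase, Rab3il1, Rab3ip and Rab5if, so 49 of the 52 members were Rab GTPases. The other 10 matching symbols lay at or below the limit.

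All animals were on the C57BL/6J background. Microglia were grown from the cortex and hippocampus of pups aged 1 to 3 days, were kept for 19 to 23 days in mixed glial culture, and were then freed of the astrocyte layer by mild trypsin. The RNA libraries were set up to compare KI animals with WT littermates, 3 mice of each genotype, and pups of the KI strain were cultured separately and genotyped afterwards. There were 3 WT cultures (T13, T33 and T43) and 3 KI cultures (T15, T22 and T32), and each gave 1 untreated library and 1 library after 20 ng/ml IL-4 for 48 h, which made 4 groups of 3 libraries.

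Rab GTPases are molecular switches of membrane traffic. An exchange factor loads a Rab with GTP, the GTP-bound Rab sits on a particular membrane and recruits effectors such as motors, tethers and lipid kinases, and a GTPase-activating protein ends the cycle, after which the protein GDI carries the inactive Rab through the cytosol. Each compartment carries its own set of Rabs, and in microglia and macrophages these serve uptake of debris, the maturation of phagosomes into acidic degradative organelles, the recycling of surface receptors and the secretion of cytokines.

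Trem2 itself ranged from 325 to 770 TPM in the 6 KI libraries and from 1190 to 1886 TPM in the 6 WT libraries, so the genotypes did not overlap. The summed level of 20 microglial markers was 34060 to 47650 TPM in WT and 14656 to 33285 TPM in KI, with 18 of the 19 markers tested lower in KI and a median difference of -0.65 on the log2 scale. The summed level of 10 astrocyte markers was 167 to 693 TPM in WT and 221 to 4803 TPM in KI, with all 9 tested markers higher in KI (median difference 1.63), and both libraries of KI culture T15 stood far above the rest. The 11 markers of mural cells and fibroblasts summed to 176 to 672 TPM in WT and 823 to 1511 TPM in KI, with all 6 tested higher in KI. Of 8 endothelial markers, 4 (Cldn5, Cdh5, Tek and Emcn) were at or below 1 TPM in every library, as were 6 of 10 neuronal markers, among them Rbfox3 and Snap25. The 10 neuronal markers summed to 6.80 to 23.8 TPM in WT and 16.4 to 67.4 TPM in KI, with all 3 tested higher in KI (median difference 1.41, log2). The 10 oligodendrocyte-lineage markers summed to 69.5 to 151 TPM in WT and 143 to 547 TPM in KI. The 8 markers of dividing cells summed to 34.0 to 98.8 TPM in WT and 36.0 to 81.8 TPM in KI, and their values with and without IL-4 stand beside the IL-4 results. In bulk RNA such as this, fewer cells of a type and less RNA per cell cannot be told apart. Trem2 is itself among the 20 microglial markers. From stained cells, the study reported that the share of microglia did not differ substantially between WT and homozygous KI cultures, with or without IL-4. It also reported lower C1qa and Csf1r in primary microglia after Trem2 knockdown by siRNA. The part of cell makeup in the marker differences was not tested here.

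Between 48 and 52 of the 52 members were above 0 TPM in any library, and 44 were above 0 TPM in every library. The 49 Rab GTPases together took 3353 to 3807 TPM per library. The group sums were 3504 ± 240 TPM in untreated WT, 3522 ± 33.9 TPM in WT with IL-4, 3666 ± 146 TPM in untreated KI and 3618 ± 190 TPM in KI with IL-4 (mean ± SD, n = 3 cultures each), and the ranges of the 4 groups overlapped, with no test made of the total. The 8 most abundant Rab GTPases took 49.4% to 61.9% of that total. The family was uneven: 16 members had a mean above 100 TPM and 17 had a mean below 10 TPM.

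Recycling and late endosomal Rabs headed the order of levels. Rab11a, the recycling endosome Rab, was the most abundant with a mean of 403 TPM over the 12 libraries and a range of 294 to 498 TPM. Rab7, which acts in the fusion of late endosomes with lysosomes, followed with a mean of 356 TPM and a narrow range of 312 to 392 TPM. The ranges of Rab11a and Rab7 overlapped widely. Rab5if, a membrane protein that is no GTPase, had a mean of 329 TPM, and Rab14, a Rab of recycling endosomes and phagosomes, had a mean of 307 TPM. Rab7b, which acts in transport from endosomes to the trans-Golgi, had a mean of 205 TPM, next to Rab2a (202 TPM) and Rab1a (193 TPM), both of which act between the endoplasmic reticulum and the Golgi. Rab11b (189 TPM) and Rab1b (183 TPM) completed the leading group, and none of these 5 stood apart from its neighbours by more than its spread over libraries.

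By compartment, the 10 members of recycling endosome and plasma membrane traffic summed to 1119 to 1433 TPM per library, and the 13 members of the endoplasmic reticulum and Golgi to 759 to 1125 TPM. The 6 tested members of late endosomes and lysosomes summed to 716 to 931 TPM, and the 9 tested members of early endosomes and phagosomes to 419 to 657 TPM. Among the last, Rab31 had the highest mean with 176 TPM, ahead of Rab5a with 108 TPM. The 5 tested Rabs of regulated secretion (Rab3a, Rab3b, Rab3d, Rab27a and Rab27b) summed to 13.05 to 52.3 TPM.

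**Figure D1:**
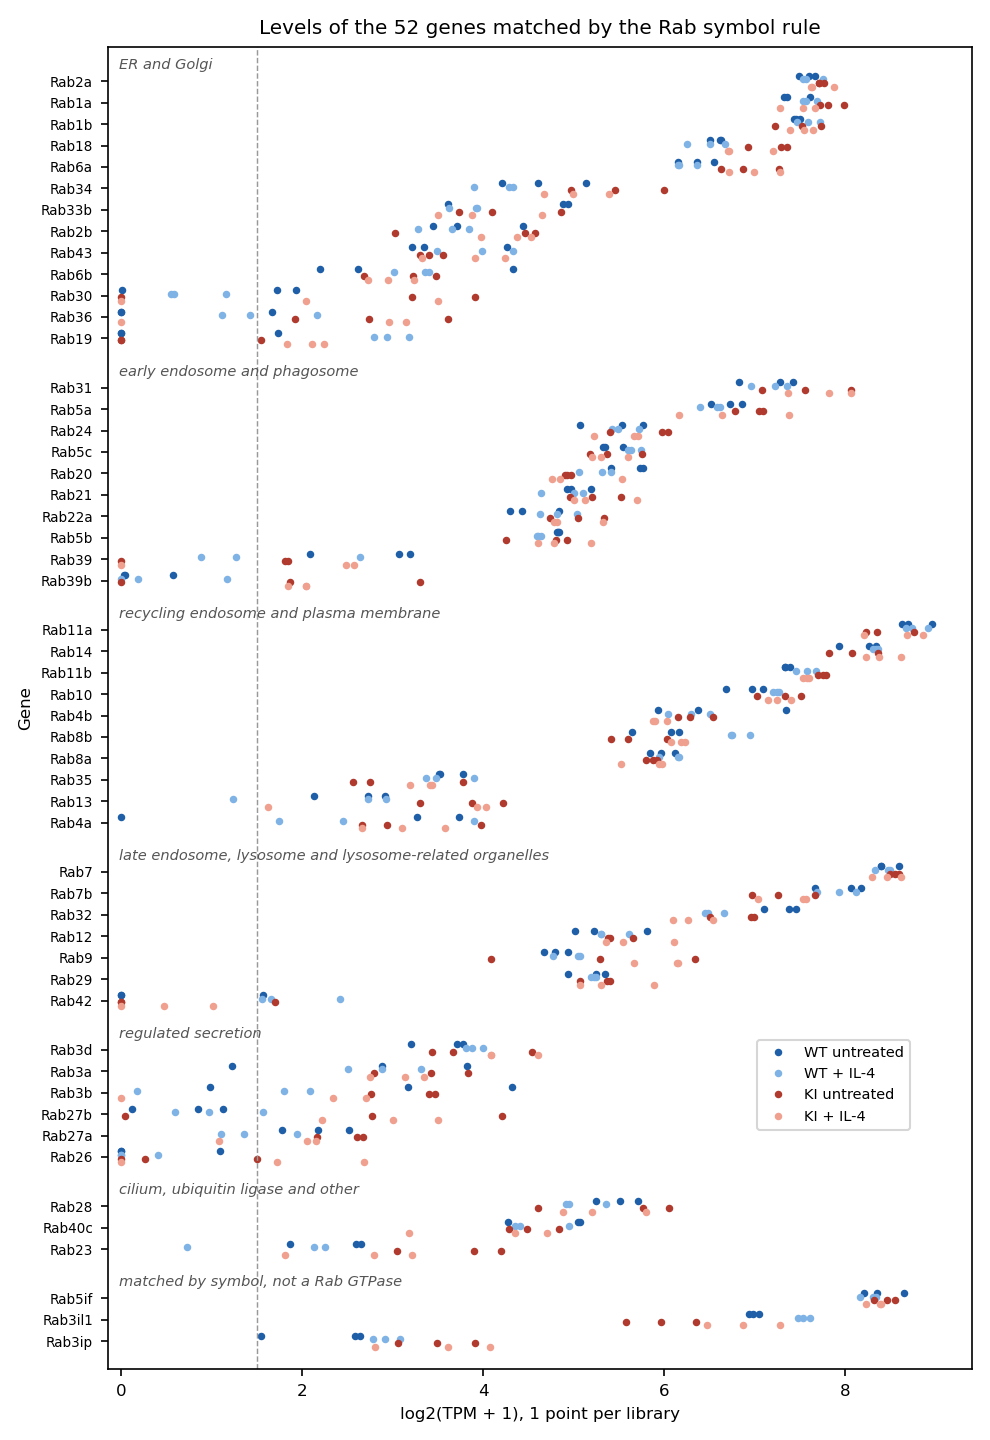
Level of each of the 52 members as log2(TPM + 1) on the horizontal axis, with 1 point per library coloured by group and the genes ordered by role and mean level; the dashed line marks 1.5, the limit on the mean above which genes were tested. Rab11a, Rab7, Rab5if and Rab14 sit farthest to the right, while Rab19, Rab30, Rab36, Rab39, Rab39b, Rab42 and Rab26 have libraries listed at 0 or near it.

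Among the members, 4 genes differed with IL-4 in at least 1 of the tests. Rab3il1, Rab8b and Rab19 were higher with IL-4 in all 6 cultures, and Rab32 was lower in all 6. The test was limma on log2(TPM + 1) over the 11204 genes with a mean above 1.5, with 49 members among them, and Benjamini-Hochberg adjustment over all 11204. With the moderated F-test of the IL-4 and genotype-by-IL-4 terms, 0 of 49 members passed an adjusted p of 0.05, against 0.893% of all genes tested. At an unadjusted p under 0.05 the same F-test took 4 of 49 members, against 7.27% of all genes. When the 2 libraries of a culture were treated as a pair, the limma F-test took 3 of 49 members (Rab3il1, Rab8b and Rab32), against 2.14% of all genes. The test of the IL-4 difference averaged over genotype took 4 of 49 without the pairing, against 1.35% of all genes, and 4 of 49 with it, against 2.92% of all genes. Both times these were Rab3il1, Rab8b, Rab19 and Rab32. Rab19 is counted there although its mean log2(TPM + 1) was 0.55 in the untreated libraries and 2.51 with IL-4, so that it passed the limit of 1.5 only through the libraries where it was high, and its tests are no support for a difference. It was the 1 member of 49 with an untreated mean at or below the limit.

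Marker sums also moved with IL-4. The 20 microglial markers summed to 34060 to 35211 TPM in untreated WT and 38645 to 47650 TPM in WT with IL-4, and to 14656 to 29121 TPM and 24785 to 33285 TPM in KI, with 12 of 19 tested markers higher on average (median difference 0.11, log2). The markers of dividing cells summed to 34.0 to 46.1 TPM in untreated WT and 49 to 98.8 TPM with IL-4, and to 36.0 to 81.8 TPM and 68.7 to 77.3 TPM in KI, with 5 of 6 tested markers higher (median 0.47, log2). The 8 endothelial markers summed to 23.7 to 29.7 TPM in untreated WT and 75.7 to 142 TPM with IL-4, and to 19.5 to 26.0 TPM and 63.7 to 92.3 TPM in KI, with both tested markers higher (median 1.45, log2) while Cldn5, Cdh5, Tek and Emcn stayed at or below 1 TPM. The part of these shifts in the IL-4 differences of the members was not tested.

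The windows of 250 bases before to 50 bases after the start of these 4 genes are shown because they are the members that moved with IL-4 in those tests. They are RefSeq promoters of build GRCm38.p6, each read 5′ to 3′ on the strand of its gene, with matches to the motifs named after them in capitals. They lie at chr19:10001419-10001718 (plus strand) for Rab3il1, where RefSeq lists 5 windows and the one at the annotated gene start is given, at chr9:66919656-66919955 (minus strand) for Rab8b, at chr6:39381103-39381402 (plus strand) for Rab19 and at chr10:10558158-10558457 (minus strand) for Rab32.
Rab3il1: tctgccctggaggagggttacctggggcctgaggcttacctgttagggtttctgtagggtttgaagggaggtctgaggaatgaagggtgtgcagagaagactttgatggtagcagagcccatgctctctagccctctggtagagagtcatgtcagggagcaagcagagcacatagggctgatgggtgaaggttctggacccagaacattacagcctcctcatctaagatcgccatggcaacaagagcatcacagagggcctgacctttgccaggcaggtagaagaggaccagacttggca
Rab8b: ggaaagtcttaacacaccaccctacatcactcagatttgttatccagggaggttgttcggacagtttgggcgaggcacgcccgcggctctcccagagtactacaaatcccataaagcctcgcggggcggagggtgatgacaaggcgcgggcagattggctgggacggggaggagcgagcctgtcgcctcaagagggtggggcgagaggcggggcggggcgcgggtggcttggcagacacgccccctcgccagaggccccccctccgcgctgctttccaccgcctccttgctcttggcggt
Rab19: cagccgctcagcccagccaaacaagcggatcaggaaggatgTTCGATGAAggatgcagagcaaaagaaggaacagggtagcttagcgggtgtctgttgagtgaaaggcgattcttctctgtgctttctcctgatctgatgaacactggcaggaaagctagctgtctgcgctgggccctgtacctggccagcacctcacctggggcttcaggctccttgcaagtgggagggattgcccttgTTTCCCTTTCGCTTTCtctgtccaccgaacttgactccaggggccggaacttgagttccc
Rab32: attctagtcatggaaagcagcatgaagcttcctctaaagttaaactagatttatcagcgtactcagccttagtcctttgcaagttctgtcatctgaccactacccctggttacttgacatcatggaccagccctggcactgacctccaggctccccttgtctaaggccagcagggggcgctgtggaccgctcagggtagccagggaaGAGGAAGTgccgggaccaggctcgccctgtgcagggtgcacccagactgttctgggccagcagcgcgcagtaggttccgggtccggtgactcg

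Each motif was searched on both strands of the 32851 promoter windows of all genes, 44 of the 52 members having a window. Many genes have several windows, and a gene was counted as holding a motif where any of its windows did; the shares given are of the 8510 genes past the limit for testing that have a window, after the share of all windows. TTCNNNNGAA, the spacing preferred by STAT6, which IL-4 activates, was in 6.95% of all windows, 6.46% of those genes and 2 of 44 members, Rab11b and Rab5b, and so in none of those printed. TTCNNNGAA, the spacing of other STATs, was in 8.30% of all windows, 8.0% of those genes and 3 of 44 members, Rab11a, Rab19 and Rab34. The match in Rab19 starts 209 bases before the RefSeq start, which lies 178 bases inside the annotated gene. For Rab32 the RefSeq start lies 58 bases inside the annotated gene, and for Rab8b 18 bases before it. GAAANNGAAA, a pattern of interferon response elements, was in 3.44% of all windows, 3.85% of those genes and in Rab19 alone among the members. In Rab19, 2 matches overlap each other across the RefSeq start, inside the annotated gene. GAGGAAGT, a core bound by PU.1, was in 3.20% of all windows, 3.92% of those genes and in Rab2b and Rab32. In Rab32 it starts 43 bases before the RefSeq start. CACGTG, the E-box of the MiT factors, was in 7.15% of all windows, 12.2% of those genes and 7 of 44 members (Rab20, Rab21, Rab23, Rab24, Rab27a, Rab3il1 and Rab5a), in Rab3il1 not in the window printed but in windows of a later start. No printed match of a motif overlapped a match of another motif, and a match is a description of letters only.

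Rab3il1 (chr19:10001669-10038380, plus strand), which encodes an exchange factor for Rab8 and Rab3a and not a Rab, was 125, 121 and 132 TPM in the WT cultures T13, T33 and T43 before treatment and 185, 194 and 177 TPM with IL-4. In the KI cultures T15, T22 and T32 it was 46.6, 80.9 and 61.2 TPM untreated and 88.0, 116 and 154 TPM with IL-4. All WT libraries with IL-4 lay above all WT libraries without it, and the same held in KI. The difference averaged over genotype was 0.73 ± 0.16 (log2, SE; 1.66-fold), with a limma adjusted p of 0.0997 in the F-test and 0.0146 with the culture as a block.

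Rab8b (chr9:66843664-66919687, minus strand), which acts in vesicle transport to the plasma membrane, was 48.8, 70.7 and 66.2 TPM in untreated WT and 107, 105 and 123 TPM with IL-4. In KI it was 41.6, 47.5 and 64.2 TPM untreated and 71.6, 66.1 and 73.7 TPM with IL-4. Treated and untreated libraries did not overlap within either genotype. The averaged difference was 0.67 ± 0.15 (log2, SE; 1.59-fold), with a limma adjusted p of 0.0997 in the F-test and 0.0450 with the block. Its paralog Rab8a, at 45.0 to 70.4 TPM in all 12 libraries, had a difference of 0.03 ± 0.13 (log2, SE).

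Rab32 (chr10:10545002-10558265, minus strand), which serves the biogenesis of lysosome-related organelles and host defence, was 136, 166 and 174 TPM in untreated WT and 100, 86.4 and 88.5 TPM with IL-4. In KI it was 89.6, 124 and 126 TPM untreated and 75.8, 91.6 and 67.3 TPM with IL-4. The WT groups did not overlap, and in KI the treated library of T22 lay just above the untreated library of T15. The averaged log2 difference was -0.65 ± 0.13 (SE; 0.638-fold), with a limma adjusted p of 0.0758 in the F-test and 0.0422 with the block. Rab38, its paralog in melanosome formation, was outside the membership limit, and Rab32 made up at least 98.7% of the summed TPM of the pair in every library.

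Rab19 (chr6:39381175-39390380, plus strand), a Golgi Rab also tied to cilium formation, was near the lower end of detection. It was 2.32 TPM in untreated T13 and was listed at 0 in untreated T33 and T43, and reached 6.64, 8.08 and 5.96 TPM with IL-4. In KI it was listed at 0 in untreated T15 and T32 and was 1.91 TPM in T22, and it was 2.55, 3.31 and 3.71 TPM with IL-4. Every treated library was above every untreated library, in WT and KI together. The averaged difference was 1.97 ± 0.44 on the log2(TPM + 1) scale (SE), with a limma adjusted p of 0.134 in the F-test, 0.0451 in the test of the averaged difference and 0.0352 in that test with the block. These p values hold for a gene that was tested only because of its IL-4 libraries. With a pseudocount of 0.1 in place of 1 the difference was 4.08 (limma adjusted p = 0.378).

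Across the 49 members tested, 5 were higher with IL-4 in every culture, against 5.73% of all genes, and 3 were lower in every culture, against 2.51% of all genes. The 5 were Rab3il1, Rab8b, Rab19, Rab14 and Rab43, and the 3 were Rab32, Rab23 and Rab27a. Rab19 is among the 5 although it passed the limit for testing only through its IL-4 libraries. Rab14 was 243, 322 and 307 TPM in untreated WT and 327, 323 and 316 TPM with IL-4, and 225, 268 and 327 TPM in untreated KI and 330, 300 and 393 TPM with IL-4, a difference of 0.24 ± 0.12 (log2, SE) with a limma adjusted p of 0.886. Rab23, an antagonist of Hedgehog signalling, was 2.65 to 5.27 TPM in untreated WT, 0.651 to 3.75 TPM in WT with IL-4, 7.24 to 17.4 TPM in untreated KI and 2.52 to 8.24 TPM in KI with IL-4 (log2 difference -0.89 ± 0.40, SE, limma adjusted p = 0.827). Rab3b, a Rab of regulated secretion, had a larger difference of -1.50 ± 0.62 (log2, SE; -2.39 with a pseudocount of 0.1), but its 3 untreated WT libraries alone spanned 0.970 to 18.9 TPM and its limma adjusted p was 0.793.

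The other members differed little with IL-4. In 42 of the 49 the averaged difference was under 0.5 on the log2 scale, which is 85.7% of them, beside 82.7% of all genes tested. The median difference was 0.01 over the 49 members and 0.04 over all genes, and after median-ratio scaling the values were -0.04 and 0.00. Abundant Rabs of general traffic had IL-4 differences of -0.06 ± 0.10 for Rab7, 0.08 ± 0.14 for Rab11a, 0.01 ± 0.10 for Rab2a and 0.08 ± 0.11 for Rab1b (log2, SE). No role list had more than 1 member called in the paired F-test.

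**Figure D2:**
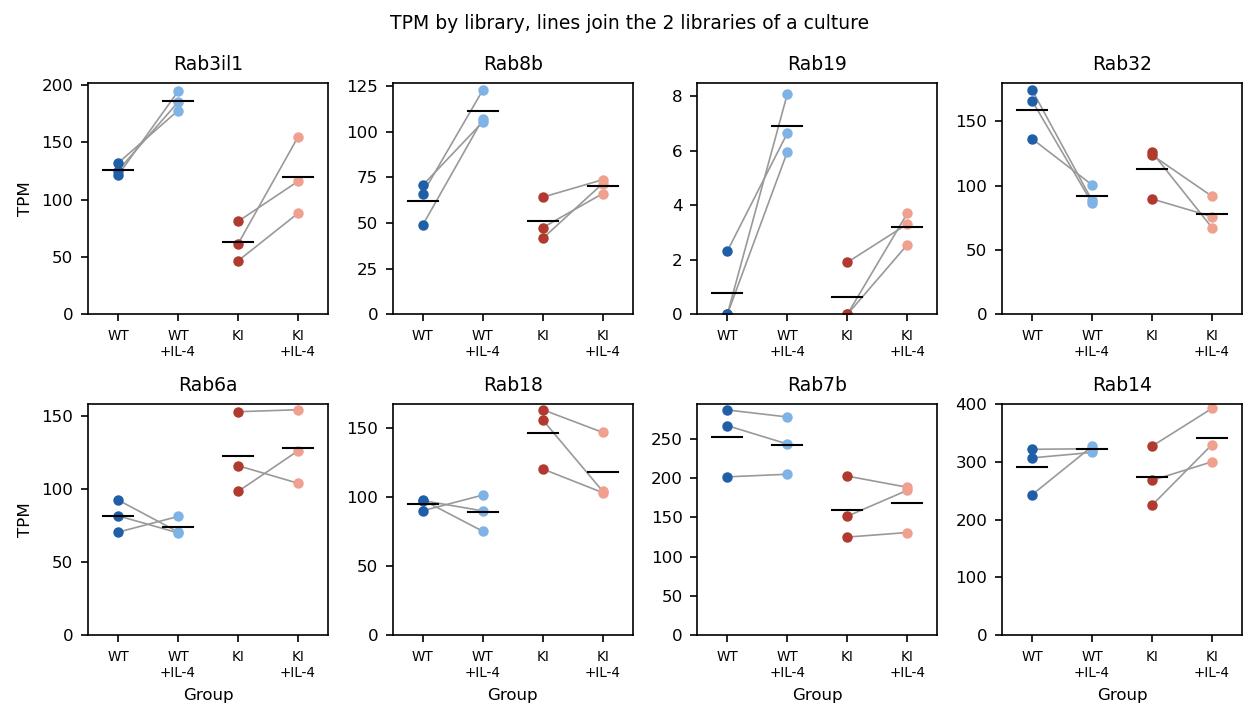
TPM of 8 members by group, with 1 point per library, grey lines joining the untreated and IL-4 library of the same culture, and black bars at the group mean; every vertical axis starts at 0. Rab3il1, Rab8b and Rab19 are higher and Rab32 lower with IL-4 in all 6 cultures, while every KI library of Rab6a and Rab18 lies above every WT library of the same treatment.

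Between the genotypes, the member that differed past the threshold was Rab3il1, the exchange factor, which was lower in KI both untreated and with IL-4, with no overlap in either treatment. In the F-test of the genotype and interaction terms it was the only member of 49 to pass, against 1.65% of all genes tested. Its averaged log2 difference was -0.85 ± 0.16 (SE; 0.557-fold), -1.02 in untreated and -0.67 in IL-4 libraries, with a limma adjusted p of 0.0367. With the culture as a block the limma adjusted p was 0.0624 and 0 of 49 members passed the F-test, against 0.687% of all genes. Without culture T15, the culture with the highest astrocyte markers, the difference was -0.65 with a limma adjusted p of 0.0811, and without any of the 3 WT cultures the adjusted p was also above 0.05, at up to 0.218. The median difference of the 19 microglial markers, -0.65, was of like size, and the part of the cell makeup in the difference was not tested.

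None of the 46 tested Rab GTPases passed that limma F-test, and at an unadjusted p under 0.05 it took 12 of the 49 members, against 16.1% of all genes. Rab27b, among those 12, passed the limit for testing only through KI. The test of the difference averaged over treatment took 4 of 49 members, against 5.13% of all genes, and 2 of 49 with the block, against 2.97% of all genes. The 4 were Rab3il1 and Rab7b, lower in KI, and Rab6a and Rab18, higher in KI, and those 2 with the block were Rab3il1 and Rab6a.

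Rab6a (chr7:100607410-100641268, plus strand), which drives retrograde traffic through the Golgi, was 70.3, 92.4 and 81.5 TPM in untreated WT and 81.1, 70.5 and 69.9 TPM in WT with IL-4. In KI it was 153, 98.2 and 116 TPM untreated and 154, 126 and 104 TPM with IL-4. Every KI library was above every WT library, with the difference averaged over treatment at 0.67 ± 0.15 (log2, SE; 1.59-fold). The limma adjusted p was 0.0648 in the F-test, 0.0205 in the test of the averaged difference and 0.0369 in that test with the block. The value was 0.51 without T15, which held the 2 highest libraries. It was 0.55 with quantile normalization and 0.52 with median-ratio scaling. Exons of Rab6a share 708 bases, 19.0% of its exon length, with Mrpl48 on the opposite strand, and the library kit does not mark strand, so reads there cannot be told apart. Mrpl48 itself had a KI minus WT difference of 0.23 ± 0.18 (log2, SE). The paralog Rab6b, at 3.58 to 19.2 TPM, had a difference of -0.10 ± 0.36 (log2, SE).

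Rab18, which acts at the endoplasmic reticulum and on lipid droplets, was 97.3, 97.8 and 89.9 TPM in untreated WT, 89.8, 75.1 and 101 TPM in WT with IL-4, 163, 120 and 156 TPM in untreated KI and 147, 103 and 104 TPM in KI with IL-4. The genotypes did not overlap in either treatment, though with IL-4 the gap between T43 and T22 was small. The averaged difference was 0.50 ± 0.14 (log2, SE, 1.42-fold). Its limma adjusted p was 0.136 in the F-test, 0.0492 in the test of the averaged difference and 0.0832 in that test with the block. With quantile normalization the difference was 0.39, and with median-ratio scaling it was 0.35.

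Rab7b (chr1:131688695-131715439, plus strand) was 202, 287 and 267 TPM in untreated WT and 205, 278 and 243 TPM in WT with IL-4. In KI it was 125, 151 and 202 TPM untreated and 131, 184 and 188 TPM with IL-4. The genotypes met at 202 TPM in the untreated cultures T13 and T32 and did not overlap with IL-4. The averaged log2 difference was -0.60 ± 0.15 (SE; 0.659-fold), with limma adjusted p values of 0.119 in the F-test, 0.0404 in the test of the averaged difference and 0.0597 in that test with the block. Without T15 the value was -0.43. It was -0.67 with quantile normalization and -0.75 with median-ratio scaling. Rab7 itself had a difference of 0.05 ± 0.10 (log2, SE).

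Several further members had differences whose tests did not pass. Lower in KI on average were Rab8b (log2 difference -0.47 ± 0.15, SE, limma adjusted p = 0.176), Rab20, which acts in phagosome maturation (-0.46 ± 0.17, adjusted p = 0.245), and Rab32 (-0.37 ± 0.13, adjusted p = 0.272). Rab20 was 41.7 to 53.4 TPM in untreated WT and 28.9 to 30.4 TPM in untreated KI, without overlap, but 32.3 to 41.6 TPM and 26.0 to 45.4 TPM with IL-4. Higher in KI on average were Rab34, which positions lysosomes and lies on phagosomes (0.83 ± 0.23, limma adjusted p = 0.154), Rab3ip, the paralog of Rab3il1 (0.90 ± 0.32, adjusted p = 0.262), and Rab11b (0.19 ± 0.09, adjusted p = 0.258). With quantile normalization the difference was 0.59 for Rab3ip (limma adjusted p = 0.548) and 0.11 for Rab11b, and with median-ratio scaling that of Rab11b was 0.04. Quantile normalization also gave -0.61 for Rab8b, -0.65 for Rab20, -0.50 for Rab32 and 0.64 for Rab34. Rab34 was 14.0 to 34.0 TPM in WT and 24.4 to 62.8 TPM in KI, with its highest library from T15.

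Among the 49 members tested, the largest differences on the log2 scale came from low members with wide spread: 1.75 ± 0.60 for Rab27b, 1.33 ± 0.59 for Rab36, 1.13 ± 0.40 for Rab23 and 1.12 ± 0.73 for Rab30 (SE), with limma adjusted p values of 0.270 or more. The WT means of Rab27b, Rab36 and Rab30 were below the limit for testing. Rab27b, which docks secretory granules, was at most 1.95 TPM in WT and 17.4 TPM in untreated T15, but 0.0263 TPM in untreated T22. The untreated library of T15 was the highest of the 12 for Rab27b, Rab36, Rab23 and Rab30. It also held the highest astrocyte marker sum, 4803 TPM, and a link between these values was not tested. How often this library was the highest over all genes was not counted.

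Counted by overlap alone, 9 of 49 members were higher in every untreated KI library than in any untreated WT library, against 13.6% of all genes, and 4 were lower, against 4.55% of all genes. With IL-4, 8 were higher, against 12.7% of all genes, and 5 were lower, against 5.79% of all genes. Rab6a and Rab18 were higher in both treatments, against 3.7% of all genes, and Rab3il1 was lower in both, against 1.23% of all genes. Rab36 and Rab27b, among the higher, had WT means below the limit for testing. Rab39 and Rab19, among the lower, had KI means below it. They are in these counts only through the genotype where they were high. The untreated and IL-4 libraries come from the same cultures, so these counts are not independent.

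The genotype differences were small over the family as a whole. In 35 of 49 members the difference was under 0.5 on the log2 scale, which is 71.4% of them, beside 70.9% of all genes tested. The median KI minus WT difference was 0.15 over the members and 0.13 over all genes, and after median-ratio scaling the values were 0.01 and -0.01. On the TPM scale 31 of 49 members had a positive difference, beside 7074 of 11204 genes. All 5 tested Rabs of regulated secretion had positive differences, of 0.31 to 1.75, and none passed the F-test. Their median was 0.36 (log2), 0.09 with quantile normalization and 0.23 with median-ratio scaling. The highest, Rab27b, passed the limit for testing only through KI.

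**Figure D3:**
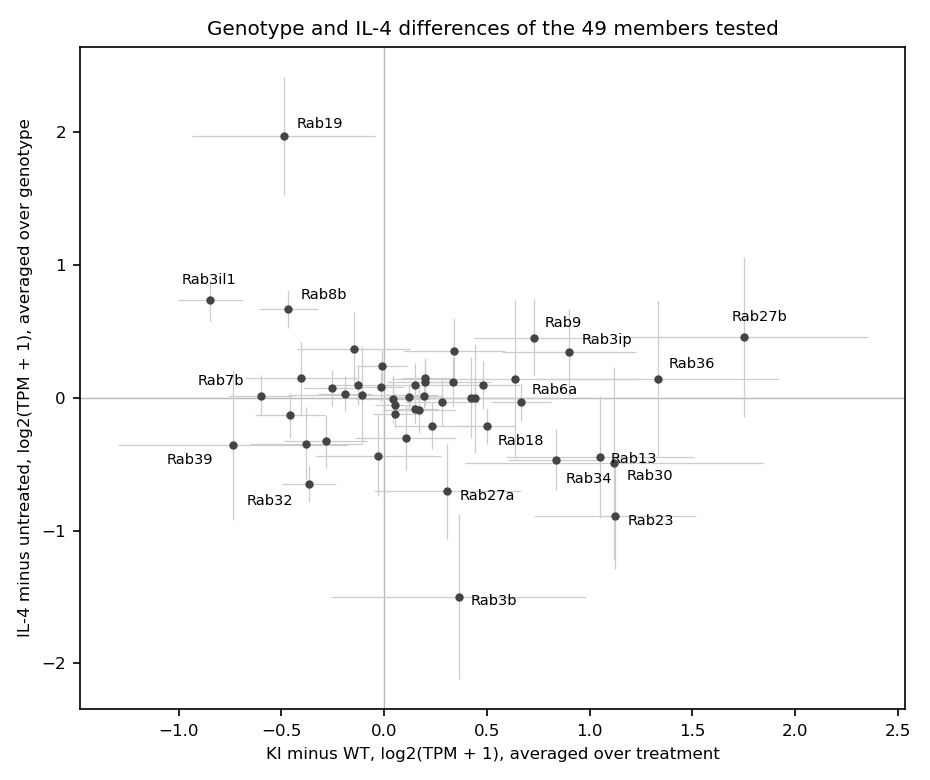
KI minus WT difference averaged over treatment (horizontal axis) against IL-4 minus untreated difference averaged over genotype (vertical axis), both in log2(TPM + 1), for the 49 members tested, with standard errors as bars. Rab3il1 and Rab8b lie at the upper left, Rab32 at the lower left and Rab19 at the top, while the widest bars belong to low members such as Rab27b, Rab36 and Rab30.

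The balance within pairs of paralogs, which sums TPM of both and gives the share of 1 of them, is a description without a test. Rab8b took 49.7% ± 2.9 of Rab8a plus Rab8b in untreated WT and 62.5% ± 1.9 with IL-4, and 46.8% ± 4.6 in untreated KI and 56.0% ± 3.1 with IL-4 (SD, n = 3). All 6 cultures had a larger share after IL-4. Rab7b took 41.5% ± 3.5 of Rab7 plus Rab7b in untreated WT and 41.1% ± 3.9 with IL-4, against 29.7% ± 4.8 in untreated KI and 32.3% ± 6.5 with IL-4 (SD, n = 3). Rab11a took 72.6% ± 2.7 of Rab11a plus Rab11b in untreated WT and 61.9% ± 4.3 in untreated KI, and 69.8% ± 0.52 and 66.8% ± 5.7 with IL-4 (SD, n = 3). Rab3il1 took 96.9% ± 1.5 of Rab3il1 plus Rab3ip in untreated WT and 85.5% ± 3.7 in untreated KI, and 96.5% ± 0.32 and 91.5% ± 3.3 with IL-4 (SD, n = 3).

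**Figure D4:**
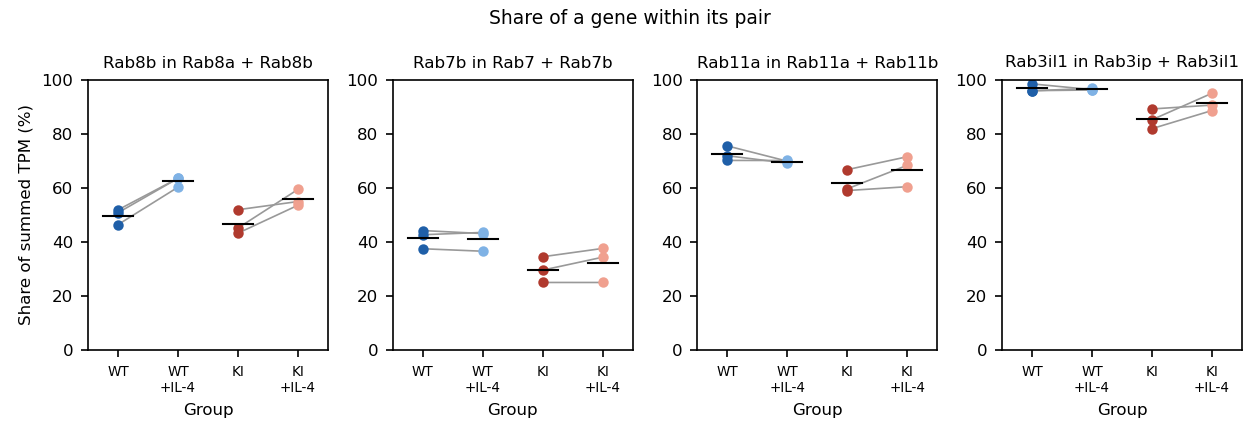
Share of Rab8b, Rab7b, Rab11a and Rab3il1 in the summed TPM of the named pair, in percent from 0 to 100, with 1 point per library, lines joining the libraries of a culture and bars at the group mean. The share of Rab8b is higher with IL-4 in all 6 cultures, and that of Rab7b averages 41.5% and 41.1% in WT and 29.7% and 32.3% in KI.

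Whether the IL-4 response of a member differed between genotypes was asked by the interaction term. In limma, 0 of 49 members passed, as did 0% of all genes, and at an unadjusted p under 0.05 there was 1 member, Rab1a, against 3.19% of all genes. For the 4 genes above, the IL-4 difference was 0.55 in WT and 0.91 in KI for Rab3il1, 0.85 and 0.48 for Rab8b, -0.78 and -0.52 for Rab32, and 2.39 and 1.54 for Rab19 (log2). The interaction terms were 0.36 ± 0.32, -0.38 ± 0.29, 0.26 ± 0.27 and -0.85 ± 0.89 (log2, SE) in the same order, so none of the responses was shown to differ. Rab10, which acts in transport to the plasma membrane, ranked behind Rab1a and Rab11b with an interaction of -0.36 ± 0.24 (log2, SE; limma adjusted p = 1.00).

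Near the membership limit, the 3 members just inside it were Rab26 with a mean log2(TPM + 1) of 0.64, Rab42 with 0.87 and Rab39b with 1.09, and the 3 matching symbols just outside were Rab3c with 0.44, Rab44 with 0.35 and Rab15 with 0.22. Rab26, Rab42 and Rab39b were below the limit of 1.5 for testing, and were tested only among the genes above 0.5, where none passed for genotype (limma adjusted p of 0.547, 0.486 and 0.274). The KI minus WT difference of Rab39b was 1.51 ± 0.49 (log2, SE). Over the WT libraries alone, the mean log2(TPM + 1) of Rab39b and that of Rab26 were below 0.5. Both were thus members, and tested, only through KI, and their genotype tests are no support for a difference. Rab39b was 0 to 1.25 TPM in the 6 WT libraries and 2.65, 3.11, 3.12, 2.58 and 8.82 TPM in 5 of the KI libraries, but was listed at 0 in untreated T32. Rab42 was 2.16, 1.94 and 4.33 TPM in WT with IL-4 and 1.97 TPM in untreated T43 and 2.26 TPM in untreated T22, inside that range, and it was listed at 0 in 5 of the other libraries. Rab44, outside the limit, was 2.57, 1.36 and 1.12 TPM in WT with IL-4 and at most 0.0615 TPM in the other 9 libraries.

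The genes that load, unload and read Rabs were taken as the rest of the pathway. Of 168 names listed, 2 were the members Rab3il1 and Rab3ip, and 134 others passed the limit for testing. In the genotype F-test 1 of the 134 passed (0.746% of them, against 1.65% of all genes), Sytl2, an effector of Rab27. Sytl2 was 2.36, 2.50 and 0 TPM in untreated WT and 4.63, 0.762 and 3.08 TPM in WT with IL-4, and in KI 11.7, 11.2 and 11.4 TPM untreated and 15.8, 27.5 and 6.43 TPM with IL-4. Every KI library was above every WT library, with a difference of 2.30 ± 0.45 on the log2(TPM + 1) scale (SE; limma adjusted p = 0.0443, and 0.0925 with the block). The F-test call was also lost with a pseudocount of 0.1, with every other limit on the mean tried, with either scaling, without the variance trend and with any 1 culture left out, and the mean log2(TPM + 1) of Sytl2 was 1.48 in WT and 3.78 in KI, so that it passed the limit of 1.5 only through KI. In the test of the averaged genotype difference 4 of 134 passed (2.99%, against 5.13% of all genes), with Sytl2, Rpgr (1.27 in WT on that scale, also below the limit there) and Osbpl1a higher and Dennd1c lower in KI, and with the block 1 passed, Sytl2 (0.746%, against 2.97% of all genes). Dennd1c, an exchange factor for Rab35, was 16.3 to 20.0 TPM in the 6 WT libraries, 6.31, 17.1 and 13.3 TPM in untreated KI and 3.54, 8.44 and 2.71 TPM in KI with IL-4, so that only the libraries with IL-4 did not overlap between genotypes. Its difference was -1.24 ± 0.30 (log2, SE), with a limma adjusted p of 0.0692 in the F-test and 0.0322 in the test of the averaged difference.

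In the IL-4 F-test 0 of the 134 passed in limma, against 0.893% of all genes, and 6 were at an unadjusted p under 0.05 (4.48% of them, against 7.27% of all genes). With the block 1 passed (0.746%, against 2.14% of all genes), Tbc1d4, a GTPase-activating protein for Rab8, Rab10 and Rab14. Tbc1d4 was 7.48, 1.53 and 3.55 TPM in untreated WT and 18.9, 10.7 and 15.2 TPM with IL-4, and 15.4, 6.48 and 6.77 TPM in untreated KI and 27.9, 21.3 and 13.6 TPM with IL-4. All 6 cultures had more of it after IL-4, by 1.43 ± 0.35 on average (log2, SE; limma adjusted p = 0.193, and 0.0422 with the block). Dennd4c, an exchange factor for Rab10, was 3.72 to 5.66 TPM untreated and 9.21 to 17.3 TPM with IL-4 over both genotypes, without overlap, a difference of 1.21 ± 0.26 (log2, SE; limma adjusted p = 0.127 in the F-test and 0.181 with the block). It was the 1 regulator past the test of the averaged IL-4 difference (adjusted p = 0.0389; 0.746% of the 134, against 1.35% of all genes), and with the block that test passed Tbc1d4 (adjusted p = 0.0151) and not Dennd4c (adjusted p = 0.065; 0.746%, against 2.92% of all genes). Vps16, a subunit of the tethering complex that binds Rab7, had the next smallest p, with a difference of 0.51 ± 0.18 (log2, SE; limma adjusted p = 0.644).

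No regulator passed the interaction test in limma, and 3 of 134 were under an unadjusted p of 0.05 (2.24% of them, against 3.19% of all genes). These 3 with the smallest p were Trappc2, Tbc1d12 and Tbc1d24, with interaction terms of 0.84 ± 0.35, -1.28 ± 0.56 and -1.63 ± 0.72 (log2, SE). The mean log2(TPM + 1) of Tbc1d24 was 1.36 in WT and 2.21 in KI, so that it passed the limit of 1.5 only through KI. The median KI minus WT difference was 0.09 over 45 exchange factors, 0.23 over 33 GTPase-activating proteins, 0.15 over 13 genes of GDI, escort and prenylation, and 0.03 over 40 effectors and tethers (log2), beside 0.13 over all genes. After median-ratio scaling these values were -0.05, 0.09, -0.004 and -0.11, beside -0.01 over all genes. With quantile normalization they were -0.13, -0.08, 0.01 and -0.20, beside -0.06 over all genes. The median IL-4 difference was 0.12, 0.07, -0.02 and 0.08 in the same order, beside 0.04 over all genes. The 3 tested genes of the Rab kinases and phosphatase had a median of -0.10 for genotype and 0.12 for IL-4 (log2), with none called.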

How the data were processed

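Poly(A)-primed cDNA libraries (SMART-Seq v4, ThruPLEX; a kit that does not mark strand) were sequenced as paired reads. Per the submitters' processing notes and methods, the authors used Trim Galore for trimming and Salmon for quantification against ENSEMBL GRCm38, and summed transcripts to genes; versions are not given in the sources used here. The authors deposited TPM values for 48623 genes in 12 libraries, scaled to the same sum in each, so the files do not give the read depth of each library and no count test or counting interval was possible (the labels name 28M reads and 12 samples per lane, without saying whether per library); the study's count model was replaced by limma 3.58.1 in R 4.3.3 on log2(TPM + 1). Names and coordinates came from GENCODE vM21 (GRCm38). Genes with a mean above 1.5 (11204) were fitted with 4 group means, eBayes with a variance trend and Benjamini-Hochberg adjustment, at a threshold of 0.05. Genotype and IL-4 were each tested by a moderated F-test with the interaction. Fold changes are on the log2(TPM + 1) scale, which understates low genes.

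Both libraries of a culture carry its name in the labels and come from the same culture, so cultures pair them; their deviations from group means correlated at 0.0792 to 0.378. The block was a random effect for genotype (correlation 0.198) and fixed for IL-4. The fit was tested on simulated data. Other tables were made in Python 3.11.15 (pandas 2.3.3). Alternatives were the pseudocount, filters, scaling, variance trend, block, the test of a single coefficient, each culture left out, and single contrasts. Without the block, p-values measure the spread between libraries of the same group and take the 2 libraries of a culture as independent. For genotype, such p-values therefore count more independent samples than the 3 cultures per genotype. With the fixed block, the IL-4 p-values measure the spread of the treatment differences between cultures.

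The members and all lists were chosen with earlier results of these data known. Genes named with values were members past a threshold in the F-test, the block fit or the single-coefficient test, the 5 smallest p per direction and comparison, the 3 smallest interaction p, the 8 most abundant members, the examples of the rule, members next to the limit, those that are no Rab GTPase, close paralogs of called genes, and the regulators past the F-test or, where none was, the 3 with the smallest p. Rab27b, Rab36, Rab30, Dennd1c and other names outside these were chosen after their values were seen. Rab24, Rab43 and Rab4b share 62.4%, 75.4% and 65.0% of their exon bases with Prelid1, Gm45140 and Gm21983, so their values are uncertain.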

Additional observations from a re-analysis of the deposited data

Results flagged for a closer look

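For 2 members, every WT culture moved one way with IL-4 and every KI culture the other way. Rab1a, which acts between the endoplasmic reticulum and the Golgi, was 159, 194 and 163 TPM in untreated WT and 184, 205 and 189 TPM with IL-4, and 222, 252 and 209 TPM in untreated KI and 202, 184 and 154 TPM with IL-4. Its IL-4 difference was 0.17 in WT and -0.34 in KI (log2), an interaction of -0.51 ± 0.22 (SE) with a limma adjusted p of 1.00 (0.0353 unadjusted). Rab11b, the second Rab of recycling endosomes, was 167, 161 and 161 TPM in untreated WT and 204, 175 and 189 TPM with IL-4, and 207, 215 and 219 TPM in untreated KI and 192, 184 and 190 TPM with IL-4. Its IL-4 difference was 0.21 in WT and -0.18 in KI, an interaction of -0.39 ± 0.18 (log2, SE) with a limma adjusted p of 1.00 (0.0515 unadjusted). Such opposite movement was seen in 2 of 49 members, 4.08% of them, beside 2.72% of all genes tested, and neither interaction passed the test.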

How the results depend on the processing

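The count of members past the genotype F-test, 1 (Rab3il1), was 0 with no expression filter, with no variance trend, with the replicate block and in IL-4 libraries only, 4 in the test of the averaged difference and 2 in that test with the block, and 0 to 1 with a culture left out (0 without T15, T13, T33 or T43). It was 1 under the other alternatives. The count past the IL-4 F-test, 0, was 3 with the replicate block, 4 in the test of the averaged difference with and without the block, and 0 to 2 with a culture left out (2, Rab32 and Rab3il1, without T15). The interaction count was 0 throughout. Among regulators, the genotype count of 1 (Sytl2) was 0 with a pseudocount of 0.1, without a filter, with filters at 0.5 and 3, with either scaling, without the variance trend, with the replicate block and within either treatment, 4 in the test of the averaged difference (Sytl2, Rpgr, Osbpl1a and Dennd1c), and 0 to 2 with a culture left out (2, Dennd1c and Tbc1d16 but not Sytl2, without T22). The IL-4 count of 0 was 1, Dennd4c, without the variance trend and in the test of the averaged difference, and 1, Tbc1d4, with the replicate block and in that test with the block.

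Of the named differences, Rab11b changed sign for genotype in IL-4 libraries only (-0.0044) and for IL-4, from a value of 0.017, with quantile normalization (-0.065), with median-ratio scaling (-0.027), without T15 or T13 (-0.0021 to 0.040 over the cultures left out) and in KI only (-0.18). Rab1a changed sign for IL-4 in WT only (0.17). The causes were not tested. Without the read count of each library, TPM near 0 cannot be told from undetected, which limits Rab19, Rab39, Rab42 and Rab26. With 3 cultures per genotype, a moderate difference can pass or fail by the test used. That of Rab18 failed the genotype F-test and passed in 1 of 18 alternatives, with limma adjusted p values of 0.0492 to 0.504 over these.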
